A study of Mus musculus with 20 samples.

Results

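Peritoneal macrophages were compared with MHC class II-high macrophages of the dura, the outer membrane around the brain, by bulk RNA sequencing of 4 libraries of each population. The 8 libraries were taken by their titles, PM and ME-MHCII-high with replicate numbers 1 to 4, out of 20 libraries in the series. The peritoneal libraries carry peritoneal cavity as their source, and the dura libraries carry dura as theirs. Both populations came from C57BL/6JRj mice, and the labels name no mutation, transgene or treatment in either. The other 12 libraries, 4 each of MHC II-low dura macrophages, choroid plexus macrophages and microglia, entered the same statistical fit and are used here only where they bear on a result. The labels give neither the age of the mice nor the way the cells were isolated, and they do not say whether replicates are separate animals. The spread behind each p-value is thus one between these libraries only, and it may be technical.

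The peritoneal cavity of a resting mouse holds mainly large peritoneal macrophages, whose identity depends on the transcription factor GATA6 and on retinoic acid made in the surrounding tissue. A smaller population with high MHC class II and CCR2 is fed by blood monocytes. Dura macrophages belong to the border macrophages of the brain, which lie outside the tissue proper and take up proteins and debris, and those with high MHC class II can present peptides to CD4 T cells. MHC class II proteins carry such peptides to the cell surface.

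Levels are in CPM, counts scaled to 1000000 gene counts of a library after TMM scaling, with all 4 libraries of each group in the order of their replicate numbers. A difference is a log2 fold change, peritoneal minus MHC II-high dura, ± its approximate standard error, from edgeR's quasi-likelihood test over all 20 libraries. Adjusted p-values follow Benjamini and Hochberg over all genes tested. A gene is called, and said to be higher or lower, where its adjusted p is below 0.05 and its change is 2-fold or more. Fewer cells of a type and less RNA per cell cannot be told apart in bulk libraries. Gene counts came to 23532894–27948494 in the peritoneal and 22203235–32611875 in the MHC II-high dura libraries, and 3 counts in 1 library stand for 0.0978–0.134 CPM. Below, dura libraries means the 4 MHC II-high dura libraries unless another population is named. The 8 libraries had counts for 13111–14509 genes, and TMM factors were 0.941–1.04.

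The labels were checked against markers. Gata6, the transcription factor of large peritoneal macrophages, had 144, 183, 171 and 189 CPM in peritoneal libraries, against 0.75, 1.25, 0 and 0 CPM in dura libraries (log2 fold change 8.41 ± 0.86, or 9.22 without MHC II-high dura replicate 2, adjusted p = 3.42e-07). Slpi, a secreted protease inhibitor of the same cells, had 2562, 3463, 2954 and 3005 CPM in peritoneal libraries, against 0, 0.134, 0.087 and 0 CPM in dura libraries (log2 fold change 15.73 ± 0.90, or 16.56 without MHC II-high dura replicate 2, adjusted p = 2.54e-09). In both genes every peritoneal library stood far above every dura library. Ccr2, the receptor that draws monocytes out of the blood, had 123, 88.3, 30.4 and 144 CPM in peritoneal libraries, against 1071, 1067, 1135 and 1255 CPM in dura libraries (log2 fold change -3.55 ± 0.35, adjusted p = 1.22e-07). Mrc1, the mannose receptor of border macrophages, had 58.4, 42.2, 27.7 and 62.2 CPM in peritoneal libraries, against 2507, 3327, 3110.0 and 2745 CPM in dura libraries (log2 fold change -5.94 ± 0.21, adjusted p = 6.02e-15). Both were lower in every peritoneal library than in every dura library, and peritoneal replicate 3 had the least of either. Against MHC II-low dura macrophages, a comparison that uses the same peritoneal libraries, the log2 fold change was -0.14 (adjusted p = 0.736) for Ccr2 and -6.60 (adjusted p = 1.78e-15) for Mrc1.

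Macrophage core genes, which mark the lineage in any tissue, were present in both populations: of 13 tested macrophage core genes 2 were higher, 5 lower and 6 not called, the median log2 fold change being -0.29. That is 15.4% higher and 38.5% lower, against 9.18% and 20.1% over all genes tested. Adgre1, which encodes F4/80, had 3019.9, 3170.0, 2477 and 3577 CPM in peritoneal libraries, against 1899, 1913, 1760.2 and 1784 CPM in dura libraries (log2 fold change 0.73 ± 0.12, adjusted p = 2.79e-05). Lyz2, lysozyme of myeloid cells, had 38702, 44687, 58853 and 33338 CPM in peritoneal libraries, against 12369.5, 11893, 12203 and 12281 CPM in dura libraries (log2 fold change 1.85 ± 0.14, adjusted p = 1.06e-09). The groups did not overlap for either, but Adgre1 was not called, and Lyz1, a near-identical copy of Lyz2, could share its reads. Aif1, the actin-binding protein IBA1, had 24.9, 7.32, 6.69 and 8.83 CPM in peritoneal libraries, against 349, 354, 363 and 370.4 CPM in dura libraries (log2 fold change -4.91 ± 0.33, or -5.56 without peritoneal replicate 1, adjusted p = 5.89e-10). Of 13 tested monocyte markers 9 were higher, 2 lower and 2 not called, the median log2 fold change being 3.60, and of 9 tested small peritoneal macrophage genes 2 were higher, 4 lower and 3 not called, the median log2 fold change being -0.74, or -0.13 without MHC II-high dura replicate 4 and -1.57 under a filter of 10 CPM in 4 libraries. Hp, haptoglobin, had 147, 133, 148 and 145 CPM in peritoneal libraries, against 0, 0.981, 0 and 0 CPM in dura libraries (log2 fold change 9.30 ± 1.02, or 14.64 without MHC II-high dura replicate 2, adjusted p = 8.54e-07). Ly6c2, the surface antigen of classical monocytes, had 0.0729–3.63 CPM in peritoneal libraries, against 0.312–3.1 CPM in dura libraries, and was not called.

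Of 13960 genes tested, 4083 (29.2%) differed, 1281 of them (9.18%) higher and 2802 (20.1%) lower in peritoneal macrophages. Counts of called list members, above and below, are to be read against these shares. The libraries of the 2 groups did not overlap, with peritoneal above, for 19% of the genes and, with peritoneal below, for 25.6%. Lower genes outnumbered higher ones less among genes of higher level and more among large differences. In the higher of the groups, 8950 genes averaged 10 CPM or more, of which 930 were higher and 1278 lower, and their median log2 fold change was 0.01, against -0.10 over all genes tested. Differences of at least 16-fold numbered 262 higher and 1266 lower, and differences of at least 64-fold 135 higher and 766 lower. These counts use fitted folds, which for genes without counts in 1 group are not held to the lower bound used below. Sall1, with no count in peritoneal libraries and a mean of 0.855 CPM in dura libraries, had a fitted log2 fold change of -7.25. How many large falls rest on such genes was not counted.

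**Figure D1:**
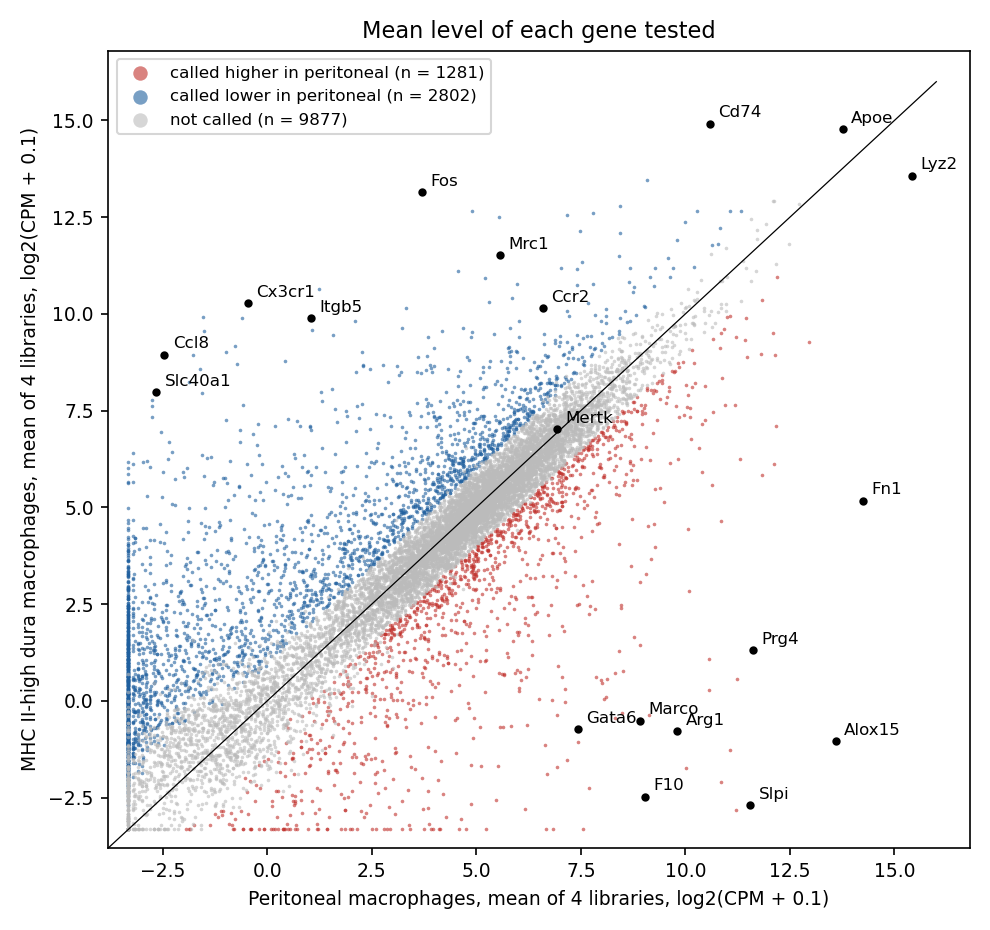
Mean level of each gene tested in peritoneal macrophages (horizontal axis) and in MHC II-high dura macrophages (vertical axis), log2(CPM + 0.1), each the mean of 4 libraries. Red points are the 1281 genes called higher and blue points the 2802 called lower in peritoneal macrophages, the line marks equal levels, and the column of blue points at the left edge holds genes with almost no counts in peritoneal macrophages.

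The 12 largest rises and the 12 largest falls are the called genes with the largest change in each direction among those whose higher mean was at least 20 CPM and whose groups did not overlap. Genes with the largest rises were nearly absent from the dura libraries. Alox15, the 12/15-lipoxygenase that oxidises arachidonic acid, had 11264, 12434, 12290.3 and 13714 CPM in peritoneal libraries, against 0.619, 0.401, 0.0435 and 0.472 CPM in dura libraries (log2 fold change 14.91 ± 1.18, adjusted p = 1.54e-08). Saa3, a serum amyloid A protein, had 3106, 1833, 3152 and 1377 CPM in peritoneal libraries, against 0, 0.0446, 0 and 0.118 CPM in dura libraries (log2 fold change 15.68 ± 1.12, or 16.94 without MHC II-high dura replicate 4, adjusted p = 3.53e-09). Padi4, an enzyme that turns arginine residues of histones into citrulline, had 1485, 1881, 2069 and 1956 CPM in peritoneal libraries, against 0.261, 0.268, 0 and 0 CPM in dura libraries (log2 fold change 13.66 ± 0.62, or 14.34 without MHC II-high dura replicate 1, adjusted p = 9.4e-11). None of these genes reached 1 CPM in any dura library.

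Clotting factors stood among the same 12 genes. F10, coagulation factor X, had 539, 492, 511 and 561 CPM in peritoneal libraries, against 0.0978, 0.178, 0.0435 and 0 CPM in dura libraries (log2 fold change 12.60 ± 0.43, or 13.20 without MHC II-high dura replicate 2, adjusted p = 1.65e-14). F7, coagulation factor VII, had 88.1, 94.6, 103 and 122 CPM in peritoneal libraries, against no count in dura libraries, and was at least 3418-fold higher. Here and below, a fold against a group without counts is a lower bound that sets that group at 3 counts over its 4 libraries. F7 and F10 lie side by side on chromosome 8, at chr8:13026034-13035809 and chr8:13037308-13056676 in GRCm38. Selp, the adhesion molecule P-selectin, had 848, 1204, 921 and 1170.1 CPM in peritoneal libraries, against 0, 0.758, 0.0435 and 0 CPM in dura libraries (log2 fold change 12.45 ± 0.76, or 15.79 without MHC II-high dura replicate 2, adjusted p = 3.52e-10). P-selectin is best known from platelets and endothelium. The 9 platelet and megakaryocyte markers summed to 0.0364–1.48 CPM in peritoneal libraries, against 9.36–15.4 CPM in dura libraries, and the platelet chemokine Ppbp had no count in any peritoneal library.

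A pair of clade B serpins on chromosome 1 rose together. Serpinb2, plasminogen activator inhibitor 2, had 1923, 1739, 2840.3 and 2067 CPM in peritoneal libraries, against 0.0652, 0.357, 0 and 0.826 CPM in dura libraries (log2 fold change 12.74 ± 0.95, or 13.92 without MHC II-high dura replicate 4, adjusted p = 6.58e-08). Serpinb10, listed as a polymorphic pseudogene in the annotation used, had 195, 155, 184 and 220.3 CPM in peritoneal libraries, against no count in dura libraries, and was at least 6345-fold higher. Their gene bodies overlap, at chr1:107511423-107535478 and chr1:107529003-107549271, and 8.34% of the exon length of Serpinb10 is shared with another gene, so some reads could belong to its neighbour. Prtn3, the neutrophil serine protease proteinase 3, had 146, 62.6, 118 and 125 CPM in peritoneal libraries, against no count in dura libraries, and was at least 3831-fold higher. The 9 neutrophil markers in the files summed to 2.49–3.73 CPM in peritoneal libraries, against 0.782–3.39 CPM in dura libraries, and Mpo and Ngp had no count in peritoneal libraries. Vmn2r26, a vomeronasal receptor gene, had 34.8, 32.7, 50.5 and 31.1 CPM in peritoneal libraries, against no count in dura libraries, and was at least 1275-fold higher. Ubash3a, a regulator of T cell receptor signalling, had 31.3, 17.9, 35.1 and 22.9 CPM in peritoneal libraries, against no count in dura libraries, and was at least 919-fold higher. The T cell marker Cd3e had at most 0.255 CPM in peritoneal libraries and no count in dura libraries.

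GATA factors bind the letters AGATAA. The promoter windows of 3 of the largest rises that hold these letters are shown to let the motif be read in place, from 250 bases before to 50 bases after the RefSeq start in GRCm38.p6. Each is written 5′ to 3′ on the strand of its gene, with the motif, or TTATCT where it lies on the opposite strand, in capitals. Saa3 is shown from chr7:46715627-46715926 (minus strand), Serpinb10 from chr1:107528753-107529052 (plus strand) and Serpinb2 from chr1:107511260-107511559 (plus strand).
Saa3: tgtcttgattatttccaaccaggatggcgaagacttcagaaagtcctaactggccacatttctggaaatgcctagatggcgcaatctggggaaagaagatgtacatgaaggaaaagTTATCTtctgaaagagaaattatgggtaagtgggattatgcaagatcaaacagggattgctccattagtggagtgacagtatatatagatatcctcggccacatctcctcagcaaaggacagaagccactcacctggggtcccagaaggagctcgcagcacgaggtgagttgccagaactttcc
Serpinb10: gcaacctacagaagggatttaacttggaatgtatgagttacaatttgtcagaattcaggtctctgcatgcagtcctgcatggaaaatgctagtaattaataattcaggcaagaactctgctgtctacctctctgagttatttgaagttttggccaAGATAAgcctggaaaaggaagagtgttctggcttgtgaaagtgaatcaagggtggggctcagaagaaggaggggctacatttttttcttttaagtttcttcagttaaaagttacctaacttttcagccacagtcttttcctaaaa
Serpinb2: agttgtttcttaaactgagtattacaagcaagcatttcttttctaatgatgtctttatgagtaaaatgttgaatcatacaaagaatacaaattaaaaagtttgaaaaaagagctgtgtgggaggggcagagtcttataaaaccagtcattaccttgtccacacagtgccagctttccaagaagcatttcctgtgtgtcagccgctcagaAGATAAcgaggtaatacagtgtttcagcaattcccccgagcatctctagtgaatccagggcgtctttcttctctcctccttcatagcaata
Of the 12 largest rises, 11 had a window in the table and 4 of these held the letters, the fourth being Ubash3a. The letters stood in 6.18% of the windows of genes called higher, 7.11% of those of genes called lower, 6.63% of those of genes tested and not called, and 11.2% of all 32851 windows. A match is a description of the letters and shows no binding.

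**Figure D2:**
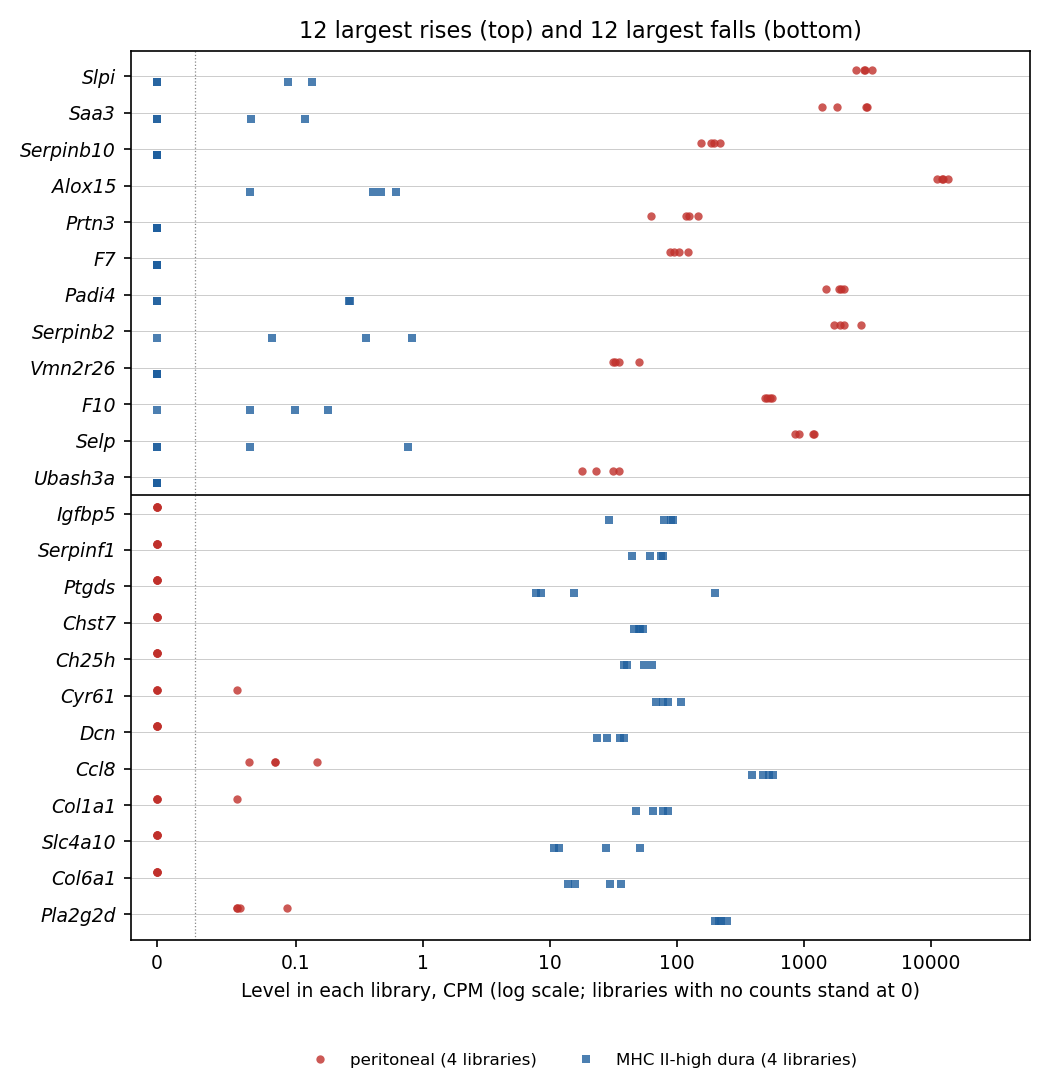
Level in CPM (horizontal axis, log scale) of the 12 largest rises and the 12 largest falls in each library, with peritoneal libraries as red circles and MHC II-high dura libraries as blue squares. Libraries without a count stand at 0. The symbols of the 2 populations are separated for all 24 genes because only genes without overlap were chosen.

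Markers of stromal and vascular cells moved with the falls. Fibroblast markers summed to 0–1.75 CPM in peritoneal libraries, against 165–336 CPM in dura libraries, and of 8 tested all were lower, with Dcn, Lum and Pdgfra at 0 in peritoneal libraries. Endothelium markers summed to 1.54–3.63 CPM in peritoneal libraries, against 26.4–50.9 CPM in dura libraries, and all 10 were lower, with Cldn5, Kdr and Tek at 0 in peritoneal libraries. The part of these cells in the falls below was not tested.

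Of the 12 largest falls, 8 had no count and 2 had 1 count over all peritoneal libraries. Col1a1, a chain of type I collagen, had 0.0346, 0, 0 and 0 CPM in peritoneal libraries, against 47.3, 77.7, 85.8 and 65.4 CPM in dura libraries. The ratio of dura to peritoneal counts of Col1a1 was 7313, with a 95% counting interval of 1312 to 288882. Dcn, the matrix proteoglycan decorin, had no count in peritoneal libraries, against 23.6, 38.3, 35.8 and 28.4 CPM in dura libraries, and was at least 1117-fold lower. Type I collagen and decorin are matrix products of fibroblasts. Col6a1, a chain of type VI collagen, had no count in peritoneal libraries, against 14, 29.5, 15.8 and 36.5 CPM in dura libraries, and was at least 850-fold lower. Igfbp5, a binding protein of insulin-like growth factors, had no count in peritoneal libraries, against 29.4, 78.5, 92.6 and 89.5 CPM in dura libraries, and was at least 2523-fold lower. Serpinf1, pigment epithelium-derived factor, had no count in peritoneal libraries, against 44.5, 75.1, 77 and 61 CPM in dura libraries, and was at least 2274-fold lower. Each of these was read in every dura library. Cyr61, a matricellular protein, had 0, 0, 0.0345 and 0 CPM in peritoneal libraries, against 107, 67.9, 77.2 and 85 CPM in dura libraries. The ratio of dura to peritoneal counts of Cyr61 was 9355, with a 95% counting interval of 1679 to 369552. Cyr61 is a secreted protein that binds integrins. Ptgds, a prostaglandin D synthase, had no count in peritoneal libraries, against 7.73, 15.5, 8.44 and 201 CPM in dura libraries, and was at least 2105-fold lower. Slc4a10, a bicarbonate transporter, had no count in peritoneal libraries, against 11.7, 27.7, 10.8 and 51.5 CPM in dura libraries, and was at least 906-fold lower. Without MHC II-high dura replicate 4 the lower bound of the fold was 371 for Ptgds and 586 for Slc4a10. Both varied widely among the dura libraries and were highest in replicate 4. Gja1, a gene of the astrocyte list, was also highest there, with 0.311, 0.729, 0.379 and 0.171 CPM in peritoneal libraries, against 13, 21.9, 14.2 and 78.9 CPM in dura libraries. Aqp4, another gene of that list, had no count in any dura library. The source of these transcripts was not tested.

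The other 4 included a chemokine and enzymes of lipid metabolism. Ccl8, a chemokine for monocytes and T cells, had 0.0691, 0.146, 0.069 and 0.0429 CPM in peritoneal libraries, against 530.1, 571, 480.4 and 392 CPM in dura libraries (log2 fold change -12.45 ± 0.65, adjusted p = 2.96e-11). Pla2g2d, a secreted phospholipase, had 0.0346, 0.0364, 0.0345 and 0.0857 CPM in peritoneal libraries, against 221, 246, 215 and 198 CPM in dura libraries (log2 fold change -12.06 ± 0.27, adjusted p = 6.99e-18). Ch25h, which makes 25-hydroxycholesterol, had no count in peritoneal libraries, against 54.8, 38.3, 63.5 and 40.2 CPM in dura libraries, and was at least 1793-fold lower. Chst7, a carbohydrate sulfotransferase, had no count in peritoneal libraries, against 51, 50.7, 54.5 and 46.1 CPM in dura libraries, and was at least 1829-fold lower. For each of the 4, every peritoneal library was below every dura library, as the rule that chose these genes requires.

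Markers of most other cell types were low in peritoneal libraries. The 8 mesothelium markers in the files summed to 0–0.643 CPM in peritoneal libraries, against 0.087–7.47 CPM in dura libraries, with Msln and Upk3b at 0 in peritoneal libraries. B cell markers summed to 5.54–28.5 CPM in peritoneal libraries, against 78.3–84.3 CPM in dura libraries, and Cd79b, a chain of the B cell receptor, had 4.42, 1.38, 2.14 and 5.44 CPM in peritoneal libraries, against 42.1, 45, 41.9 and 33.8 CPM in dura libraries (log2 fold change -3.61 ± 0.28, adjusted p = 1.5e-09). The 10 T and NK cell markers in the files summed to 0.552–1.63 CPM in peritoneal libraries, against 108–139 CPM in dura libraries, and Cd4, a coreceptor for MHC class II that mouse macrophages can also carry, had 0, 0.255, 0.0345 and 0 CPM in peritoneal libraries, against 137, 139, 114 and 106 CPM in dura libraries (log2 fold change -10.62 ± 0.33, or -12.75 without peritoneal replicate 2, adjusted p = 1.19e-15). Cd4 was the T and NK cell marker that passed the filter on low counts. Mast cell markers summed to 0–5.96 CPM in peritoneal libraries, against 1.43–6.39 CPM in dura libraries, eosinophil markers to 2.31–3.42 CPM in peritoneal libraries, against 8.43–12.4 CPM in dura libraries and erythroid markers to 0.0429–0.345 CPM in peritoneal libraries, against 2.64–6.81 CPM in dura libraries. Neuron markers summed to 1.76–5.7 CPM in peritoneal libraries, against 1.61–10.3 CPM in dura libraries, astrocyte markers to 18.4–31.2 CPM in peritoneal libraries, against 26.4–92.2 CPM in dura libraries and oligodendrocyte markers to 189–301 CPM in peritoneal libraries, against 199–282 CPM in dura libraries. The last sum came mainly from Cnp and Mbp, which were not called. Of 8 tested astrocyte markers 5 were lower, or 2 under a filter of 10 CPM in 4 libraries, and 1 was higher. The higher one, Aldh1l1, a folate enzyme, made up most of the peritoneal sum, with 28.6, 21.2, 16.9 and 25.1 CPM in peritoneal libraries, against 1.79, 3.57, 2.78 and 4.96 CPM in dura libraries. Of 5 tested neuron markers 3 were lower, or 1 with only the 8 libraries, and Tubb3, a tubulin named after its values were seen, was higher (3.20). Tubb3 was not called with glmTreat, which tests against the 2-fold threshold itself, nor without MHC II-high dura replicate 2, 3 or 4 or peritoneal replicate 1 or 4. The part of these cells in the differences was not tested.

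Microglia markers were lower, 13 of 15, with 1 higher and 1 not called. The higher gene was Slc2a5, a sugar transporter named after its values were seen, and it was not called with the replicate block, with only the 8 libraries, without the filter on low counts, with glmTreat, and without MHC II-high dura replicate 2, 3 or 4, peritoneal replicate 3 or 4, MHC II-low dura replicate 2 or 3, or choroid plexus replicate 2 or 4. The microglia markers summed to 393–537 CPM in peritoneal libraries, against 5272–5941 CPM in dura libraries. Sall1, the factor that defines microglia, was at 0 in peritoneal libraries and averaged only 0.855 CPM in dura libraries. Olfml3, a secreted matrix protein, had 0, 0.0729, 0.0345 and 0.0857 CPM in peritoneal libraries, against 214, 206, 197 and 170.4 CPM in dura libraries (log2 fold change -11.89 ± 0.26, adjusted p = 6.59e-18). Gpr34, a receptor for lysophosphatidylserine, had 0.691, 0.0364, 1.17 and 0.129 CPM in peritoneal libraries, against 331, 483, 468 and 378 CPM in dura libraries (log2 fold change -9.61 ± 0.45, or -10.41 without peritoneal replicate 3, adjusted p = 2.33e-12). Siglech, a sialic acid receptor shared with plasmacytoid dendritic cells, had 0.0346, 0, 0.0345 and 0.0429 CPM in peritoneal libraries, against 47.7, 81.6, 89.1 and 69.1 CPM in dura libraries. The ratio of dura to peritoneal counts of Siglech was 2534, with a 95% counting interval of 867 to 12290. The groups did not overlap for any of them.

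Genes of large peritoneal macrophages rose almost as a block. Of 24 tested, 23 were higher and 1 was not called, and the median log2 fold change was 9.01. The list was assembled with earlier results of these data known, so its direction is not independent evidence. Slpi, Saa3, Alox15 and Padi4 led it, and the rest of the higher genes were Gata6, Icam2, Selp, F5, F10, Garnl3, Naip1, Prg4, Cxcl13, Serpinb2, Tgfb2, Timd4, Fn1, Ltbp1, Thbs1, Rarb, Itga6, Nt5e and Vsig4. Fn1, fibronectin, also a monocyte marker, had 14209, 28808, 10042 and 24465 CPM in peritoneal libraries, against 6.59, 38, 14.6 and 84.9 CPM in dura libraries (log2 fold change 9.07 ± 0.88, or 9.95 without MHC II-high dura replicate 4, adjusted p = 1.78e-07). Icam2, an adhesion molecule, had 1106, 933, 1067 and 1224 CPM in peritoneal libraries, against 9.49, 5.84, 5.05 and 7.95 CPM in dura libraries (log2 fold change 7.25 ± 0.24, adjusted p = 4.34e-15). Among peritoneal libraries Fn1 was highest in replicates 2 and 4 and lowest in replicate 3, while Icam2 varied less. Cd93, a surface receptor, had 135, 171, 116 and 117 CPM in peritoneal libraries, against 176, 225, 218 and 197 CPM in dura libraries (log2 fold change -0.60 ± 0.28, adjusted p = 0.0782). Cd93 was the member not called.

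Retinoid genes were called in both directions. Retinoic acid maintains Gata6 in peritoneal macrophages of mice. Of 13 tested members 4 were higher, 3 lower and 6 not called, the median log2 fold change being 0.60. The share called lower, 23.1%, was near the 20.1% over all genes tested, and 1 member was lower under a filter of 10 CPM in 4 libraries. Rarb, a retinoic acid receptor that retinoic acid itself induces, had 42.4, 42.2, 38.2 and 72.8 CPM in peritoneal libraries, against 1.83, 1.25, 1.83 and 1.14 CPM in dura libraries (log2 fold change 5.01 ± 0.55, adjusted p = 3.42e-07). Aldh1a2, which makes retinoic acid, had 55.1, 54.7, 37 and 73.9 CPM in peritoneal libraries, against 7.21, 4.06, 5.7 and 5.7 CPM in dura libraries (log2 fold change 3.28 ± 0.37, adjusted p = 1.3e-06). Rarg, a second receptor, had 68.2, 78.8, 60.7 and 98.3 CPM in peritoneal libraries, against 21.7, 20.1, 17.3 and 23.5 CPM in dura libraries (log2 fold change 1.89 ± 0.20, adjusted p = 1.06e-07). For all 3 the groups did not overlap, though 38.4% of the exon length of Rarb is shared with other genes. Cyp26b1, which degrades retinoic acid, was the other higher gene, and the lower genes included Aldh1a1 and Crabp2. Rxra (0.60) and Dhrs3 (0.16) were not called.

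Most macrophage transcription factors that differed were lower. Of 27 tested members 2 were higher, 11 lower and 14 not called, the median log2 fold change being -0.74. At 7.41%, the share called higher was near the 9.18% over all genes tested. The higher genes were Gata6 and Bhlhe40. Bhlhe40, a helix-loop-helix factor needed for proliferation of large peritoneal macrophages in mice, had 404, 402, 357 and 499 CPM in peritoneal libraries, against 7.92, 4.59, 15.9 and 15.7 CPM in dura libraries (log2 fold change 5.24 ± 0.55, adjusted p = 4.19e-07). Spic, a factor of iron-recycling macrophages, had 0, 0.109, 0 and 0 CPM in peritoneal libraries, against 18.4, 27.8, 20.8 and 20.7 CPM in dura libraries. The ratio of dura to peritoneal counts of Spic was 782, with a 95% counting interval of 267 to 3794. Spic was read in 1 peritoneal library and in every dura library. Egr2, an early growth response factor, had 1.17, 8.16, 4.03 and 5.91 CPM in peritoneal libraries, against 386, 382, 467 and 409 CPM in dura libraries (log2 fold change -6.42 ± 0.47, adjusted p = 3.33e-09). The other lower genes were Klf4, Maf, Irf8, Runx1, Batf3, Nr4a1, Id3, Mef2c and Pparg. Cebpb (0.75) and Klf2 (-0.12) were not called.

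Enzymes of eicosanoid synthesis turn arachidonic acid into leukotrienes, prostaglandins and hydroxy acids, and more were higher than lower. Of 14 tested members 7 were higher, 2 lower and 5 not called, the median log2 fold change being 0.89. Ptgis, prostacyclin synthase, had 320.4, 359.6, 359.9 and 411 CPM in peritoneal libraries, against 0.391, 1.92, 0.609 and 3.54 CPM in dura libraries (log2 fold change 7.82 ± 0.63, or 8.60 without MHC II-high dura replicate 4, adjusted p = 1.34e-08). Ptgs2, the inducible cyclooxygenase, had 0, 0, 0.172 and 0 CPM in peritoneal libraries, against 49.2, 35.2, 109.7 and 71 CPM in dura libraries (log2 fold change -10.33 ± 0.75, or -13.51 without peritoneal replicate 3, adjusted p = 2.78e-09). Hpgds, hematopoietic prostaglandin D synthase, had 0.726, 0.583, 0.69 and 0.257 CPM in peritoneal libraries, against 160.5, 200.2, 218 and 215 CPM in dura libraries (log2 fold change -8.42 ± 0.20, adjusted p = 1.79e-17). None of these groups overlapped. The higher genes besides Alox15 and Ptgis were Alox5, Alox5ap, Ptgs1, Ptges and Ltc4s. Ptgs1, the constitutive cyclooxygenase, was thus called in the opposite direction to Ptgs2. Pla2g7 (-0.67) and Tbxas1 (-0.12) were not called.

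Coagulation and fibrinolysis genes were called in both directions. Of 16 tested members 6 were higher, 7 lower and 3 not called, the median log2 fold change being -0.42, and the median was 0.77 with 4 lower under a filter of 10 CPM in 4 libraries. F5, coagulation factor V, had 1423, 2011, 868 and 1764 CPM in peritoneal libraries, against 1.6, 0.535, 1.39 and 0.905 CPM in dura libraries (log2 fold change 10.39 ± 1.35, adjusted p = 6.11e-06). Its peritoneal libraries stood above every dura library. Those of F7, F10 and Serpinb2 did too, but the rule that chose the largest rises required this. The other higher genes were Plaur and Pros1, which encode the urokinase receptor and protein S. The lower genes included F3, F13a1, Plau, Plat, Procr and F2r, among them tissue factor (F3) and both plasminogen activators (Plau and Plat). Thbd (-0.36) and Tfpi (-0.48) were not called.

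**Figure D3:**
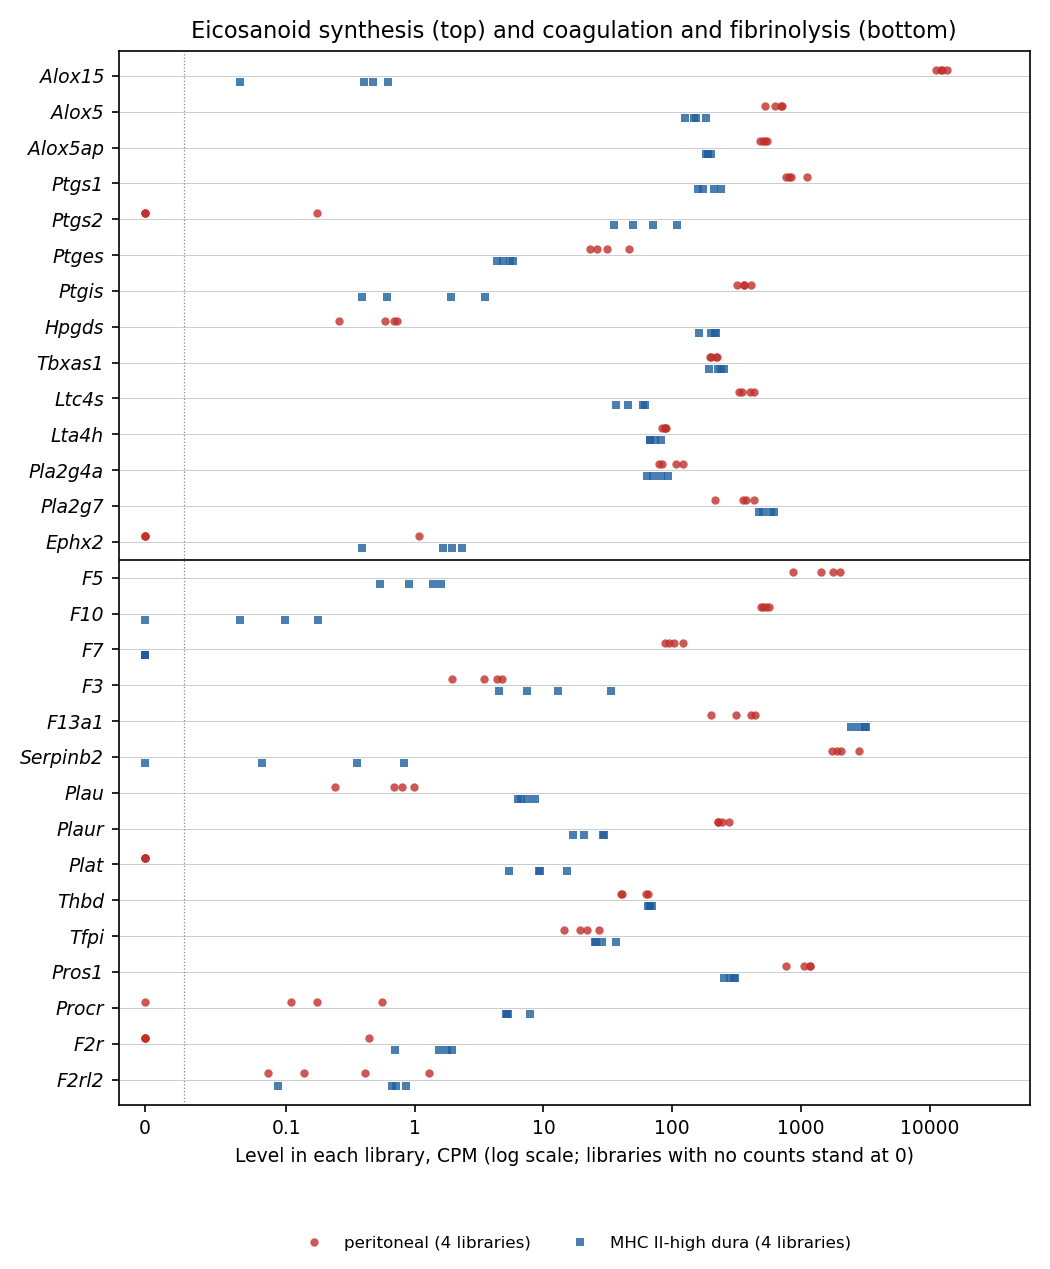
Level in CPM (horizontal axis, log scale) in each library of the 14 eicosanoid genes and of 15 coagulation and fibrinolysis genes, with peritoneal libraries as red circles and MHC II-high dura libraries as blue squares. Alox15, Ptgis, F5, F7, F10 and Serpinb2 stand far to the right in peritoneal libraries, and Ptgs2, Hpgds and Plat far to the right in dura libraries.

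Border macrophage markers were mostly lower. Of 20 tested, 17 were lower, 2 higher and 1 not called, and the median log2 fold change was -3.18. At 10%, the share called higher was near the 9.18% over all genes tested. Ms4a7, a membrane protein of border macrophages, had 0.553, 0.328, 0.621 and 0.129 CPM in peritoneal libraries, against 544, 521, 495 and 509.8 CPM in dura libraries (log2 fold change -10.25 ± 0.32, adjusted p = 1.34e-15). Cd209f, a lectin of the DC-SIGN family, had 1.69, 1.6, 3.72 and 2.27 CPM in peritoneal libraries, against 251, 285, 262 and 215 CPM in dura libraries (log2 fold change -6.76 ± 0.23, adjusted p = 1.55e-13). Clec4n, the fungal receptor Dectin-2, had 5.91, 4.66, 4.9 and 2.53 CPM in peritoneal libraries, against 163, 154, 184 and 134 CPM in dura libraries (log2 fold change -5.13 ± 0.23, adjusted p = 2.36e-13). No peritoneal library came near a dura library in these. Lyve1, a hyaluronan receptor, had 57.8, 65.4, 84 and 69.9 CPM in peritoneal libraries, against 96.6, 84.3, 128 and 71.2 CPM in dura libraries (log2 fold change -0.46 ± 0.21, adjusted p = 0.0749). Lyve1 was not called, and its groups overlapped. Pf4 and Ccl24 were the higher genes, and 1 was left without MHC II-high dura replicate 1 or peritoneal replicate 2 or 3.

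Scavenger receptors, which bind modified lipid, particles and debris, were called in both directions. Of 13 tested members 4 were higher, 4 lower and 5 not called, the median log2 fold change being 0.33. Marco, a receptor for bacteria and particles, had 572, 538, 348 and 484 CPM in peritoneal libraries, against 0.652, 0.624, 0.217 and 0.905 CPM in dura libraries (log2 fold change 9.63 ± 0.43, adjusted p = 1.57e-12). Cd5l, a secreted protein that binds lipid and microbes, had 2672, 1993, 1993 and 2908 CPM in peritoneal libraries, against 2.22, 0.803, 1.96 and 0.511 CPM in dura libraries (log2 fold change 10.74 ± 0.43, adjusted p = 2.41e-13). Stab1, an endocytic receptor of resident macrophages, had 48.3, 64.8, 77.3 and 41.5 CPM in peritoneal libraries, against 1116, 1788, 1301 and 1201 CPM in dura libraries (log2 fold change -4.54 ± 0.25, adjusted p = 5.77e-12). Marco and Cd5l were close to 0 in dura libraries, and Stab1 was lower in every peritoneal library. Cd36 (0.33) and Cd68 (-0.32) were not called.

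C-type lectins, sugar receptors of the surface, were mostly lower. Of 17 tested members 3 were higher, 12 lower and 2 not called, the median log2 fold change being -2.01. Mgl2, a galactose-type lectin, had 5.84, 10.7, 10.03 and 10.6 CPM in peritoneal libraries, against 612, 871, 997 and 699 CPM in dura libraries (log2 fold change -6.42 ± 0.24, adjusted p = 2.04e-14). Clec12a, an inhibitory receptor, had 18.1, 5.83, 4.45 and 5.57 CPM in peritoneal libraries, against 413, 341, 411 and 432 CPM in dura libraries (log2 fold change -5.55 ± 0.34, or -6.24 without peritoneal replicate 1, adjusted p = 1.72e-10). Clec4e, the receptor Mincle for mycobacterial glycolipid, had 253, 219, 268 and 167 CPM in peritoneal libraries, against 2.97, 3.08, 9.66 and 4.48 CPM in dura libraries (log2 fold change 5.50 ± 0.33, adjusted p = 8.52e-11). Clec4e and its partner Clec4d were higher and lie at chr6:123281789-123289870 and chr6:123262111-123275265 on chromosome 6, and Clec4n, at chr6:123229843-123247021, was lower. Lectins of the Clec4 and Cd209 families are similar in sequence, and reads could be split among them.

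Genes for taking up dying cells gave no common direction. Of 15 tested members 5 were higher, 3 lower and 7 not called, the median log2 fold change being -0.09. The share called lower, 20%, was near the 20.1% over all genes tested. Timd4, a receptor for phosphatidylserine, had 1228, 868, 760.1 and 759.8 CPM in peritoneal libraries, against 80.5, 77.2, 81.7 and 63.7 CPM in dura libraries (log2 fold change 3.58 ± 0.27, adjusted p = 1.84e-09). Gas6, a bridge between phosphatidylserine and TAM receptors, had 3.8, 4.04, 3.9 and 5.1 CPM in peritoneal libraries, against 906, 988, 875 and 840.1 CPM in dura libraries (log2 fold change -7.75 ± 0.20, adjusted p = 4.43e-17). Itgb5, an integrin chain that binds the bridge MFG-E8, had 1.07, 3.39, 1.66 and 1.71 CPM in peritoneal libraries, against 977, 997, 931 and 914 CPM in dura libraries (log2 fold change -8.93 ± 0.28, adjusted p = 1.04e-15). The groups did not overlap in any of them. Itgb3, another integrin chain for MFG-E8, had 22.2, 33, 9.28 and 42.7 CPM in peritoneal libraries, against 1.66, 3.03, 2.09 and 4.01 CPM in dura libraries (log2 fold change 3.31 ± 0.41, adjusted p = 1.92e-06). So the 2 integrin chains were called in opposite directions. Cd300a (-0.25) and Elmo1 (-0.88) were not called.

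Of 21 integrin and adhesion genes 20 were called, 12 higher and 8 lower, and the median log2 fold change was 1.81. Vcam1, a ligand for leukocyte integrins, had 0.449, 0, 0.241 and 0 CPM in peritoneal libraries, against 411, 326, 254 and 226 CPM in dura libraries (log2 fold change -10.66 ± 0.63, or -11.67 without peritoneal replicate 1, adjusted p = 2.03e-10). Itgam, CD11b, had 4896, 4592, 3304 and 5289.8 CPM in peritoneal libraries, against 499.7, 431, 501 and 516 CPM in dura libraries (log2 fold change 3.21 ± 0.15, adjusted p = 6.58e-13). Itgam shares 68.7% of its exon length with other genes. The higher genes included Itgam, Itga4, Itga6, Itgb1, Itgb2, Itgb3, Itgb7, Icam2, Selp, Selplg and Cd9, and the lower genes were Itgax, Itgal, Itga9, Itgb5, Itgb8, Icam1, Vcam1 and Pecam1. Itgav was not called (-0.88).

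MHC class II genes were low in peritoneal libraries. The dura population is defined by MHC class II, so these values describe the groups and are no finding. H2-Ab1, a chain of I-A, had 1008, 354, 111 and 707 CPM in peritoneal libraries, against 12095, 10583, 11485 and 11065 CPM in dura libraries (log2 fold change -4.38 ± 0.46, adjusted p = 3.6e-07). Cd74, the invariant chain, had 2619, 1047, 268 and 2243 CPM in peritoneal libraries, against 33158, 29083, 31291 and 30001 CPM in dura libraries (log2 fold change -4.32 ± 0.47, adjusted p = 4.47e-07). The 11 listed genes summed to 5014, 1993, 587 and 3906 CPM in peritoneal libraries, against 60248, 53725, 58174 and 55319 CPM in dura libraries. The peritoneal libraries differed among themselves by far more than the dura libraries, and replicate 3, the lowest, was also the lowest in Ccr2. H2 genes are similar in sequence, and reads could be split among them.

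Class I presentation did not follow class II. B2m, the light chain of class I, had 4794, 2457, 1588 and 4627 CPM in peritoneal libraries, against 5143, 4178, 4186 and 4751 CPM in dura libraries (log2 fold change -0.44 ± 0.27, adjusted p = 0.186). H2-D1, a class I heavy chain, had 3901, 3041, 1754 and 4528 CPM in peritoneal libraries, against 2853, 1824, 1745 and 2329 CPM in dura libraries (log2 fold change 0.60 ± 0.26, adjusted p = 0.0567). Both overlapped and were not called. Of 13 genes 12 were not called and 1 was lower. Tap1, the peptide transporter, had 219.5, 53, 48.8 and 151 CPM in peritoneal libraries, against 392, 204, 213 and 254 CPM in dura libraries (log2 fold change -1.17 ± 0.43, adjusted p = 0.0281). Without peritoneal replicate 2 or 3, or dura replicate 1, Tap1 was no longer called, and 2 genes were lower without peritoneal replicate 1 or microglia replicate 5.

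Costimulatory and checkpoint ligands were lower or not called. Of 10 tested members 5 were lower and 5 not called, the median log2 fold change being -1.02. Cd83, a stabiliser of surface MHC class II, had 1.62, 3.28, 1.45 and 2.61 CPM in peritoneal libraries, against 1314, 1213, 2529 and 1391 CPM in dura libraries (log2 fold change -9.49 ± 0.41, adjusted p = 5.3e-13). Icosl, the ICOS ligand, had 12.9, 8.42, 7.79 and 9.51 CPM in peritoneal libraries, against 125, 101, 115 and 97.8 CPM in dura libraries (log2 fold change -3.51 ± 0.16, adjusted p = 1.96e-13). Tnfsf9, the 4-1BB ligand, had 1.87, 1.75, 2.34 and 2.1 CPM in peritoneal libraries, against 11.2, 10.7, 25.6 and 22.7 CPM in dura libraries (log2 fold change -3.12 ± 0.38, adjusted p = 6.49e-07). Lgals9 (0.13) and Cd40 (-0.14) were not called. Dendritic cell markers, which the dura libraries could hold, summed to 49.3–107 CPM in peritoneal libraries, against 243–276 CPM in dura libraries, with 10 of 13 lower and 3 not called, or 1 higher without peritoneal replicate 1. Itgax, CD11c, had 0.691, 1.31, 0 and 0.857 CPM in peritoneal libraries, against 55.3, 27.2, 27.6 and 36.7 CPM in dura libraries (log2 fold change -5.68 ± 0.54, adjusted p = 4.37e-08). Kmo, kynurenine monooxygenase, had 1.28, 0.547, 0.241 and 0.0429 CPM in peritoneal libraries, against 43, 41.2, 59.5 and 41.7 CPM in dura libraries (log2 fold change -6.40 ± 0.53, or -7.31 without peritoneal replicate 1, adjusted p = 1.05e-08). The dendritic cell sum was highest in microglia libraries, at 1828–2184 CPM. For MHC II-low dura macrophages it came to 294–385 CPM, and for choroid plexus macrophages to 207–260 CPM. Among its members in dura libraries, Siglech, also a microglia marker, averaged 71.9 CPM. Flt3, Clec9a, Ccr7 and Xcr1 averaged 4.25, 3.04, 3.09 and 2.18 CPM there. The part of dendritic cells in the differences between peritoneal and dura libraries was not tested.

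Chemokine ligands showed wide gaps between the populations. Of 19 tested members 4 were higher, 12 lower and 3 not called, the median log2 fold change being -4.79. Ccl7, an attractant of monocytes, had 0.311, 0, 1.66 and 0.257 CPM in peritoneal libraries, against 877, 869.6, 1127 and 958 CPM in dura libraries (log2 fold change -10.70 ± 0.64, or -12.27 without peritoneal replicate 3, adjusted p = 2.03e-10). Ccl12, another ligand of CCR2, had 0.38, 0.146, 0.207 and 0.0429 CPM in peritoneal libraries, against 458, 385, 629 and 491 CPM in dura libraries (log2 fold change -11.21 ± 0.42, adjusted p = 7.78e-14). Cxcl9, an interferon-induced attractant of T cells, had 0.104, 0.0364, 0 and 0 CPM in peritoneal libraries, against 68, 95.6, 83.6 and 47.2 CPM in dura libraries (log2 fold change -10.77 ± 0.52, or -11.98 without peritoneal replicate 1, adjusted p = 1.31e-12). Peritoneal libraries held at most 1.66 CPM of any of the 3. The higher genes were Ccl6, Ccl24, Cxcl13 and Pf4. Near-identical members of the Ccl cluster could share reads.

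Of 10 chemokine receptors 8 were lower and 2 higher, and the median log2 fold change was -3.91. Cx3cr1, the fractalkine receptor, had 0.726, 0.255, 0.483 and 1.03 CPM in peritoneal libraries, against 1254, 1302, 1269 and 1155 CPM in dura libraries (log2 fold change -10.98 ± 0.26, adjusted p = 1.79e-17). Cxcr4, the receptor of CXCL12, had 0.967, 0.219, 0.069 and 0.129 CPM in peritoneal libraries, against 23, 17.7, 33.7 and 22.8 CPM in dura libraries (log2 fold change -6.08 ± 0.51, or -7.40 without peritoneal replicate 1, adjusted p = 8.12e-09). Ackr3, an atypical receptor that also binds CXCL12, had 63.7, 97, 122 and 79.98 CPM in peritoneal libraries, against 0.652, 0.535, 0.609 and 1.97 CPM in dura libraries (log2 fold change 6.58 ± 0.54, or 7.22 without MHC II-high dura replicate 4, adjusted p = 9.67e-09). So the 2 receptors of CXCL12 were called in opposite directions. Cxcr3, the receptor of CXCL9, had 0.276, 0.437, 0.103 and 0.3000 CPM in peritoneal libraries, against 19.7, 25.7, 23.9 and 21.1 CPM in dura libraries (log2 fold change -6.32 ± 0.25, adjusted p = 2.81e-14). Ccr1 was the other higher gene.

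Inflammatory cytokines were lower or not called. Of 16 tested members 8 were lower and 8 not called, the median log2 fold change being -2.25, or -1.18 with genes that had no count on one side at their bound, and the median was -1.23 without MHC II-high dura replicate 1. There was 1 higher gene without MHC II-low dura replicate 4 or with only the 8 libraries. Il1b, interleukin 1 beta, had 0.0691, 0.0364, 0.172 and 0.643 CPM in peritoneal libraries, against 276, 292, 600.5 and 356 CPM in dura libraries (log2 fold change -10.76 ± 0.60, or -11.88 without peritoneal replicate 4, adjusted p = 7.06e-11). Tnf, tumour necrosis factor, had 0.242, 1.28, 0.172 and 1.33 CPM in peritoneal libraries, against 108, 93.1, 212 and 154 CPM in dura libraries (log2 fold change -7.59 ± 0.56, adjusted p = 3.61e-09). Il10, the inhibitory interleukin 10, had 1.11, 0, 0.414 and 0.171 CPM in peritoneal libraries, against 27.7, 33.2, 54.1 and 30.01 CPM in dura libraries (log2 fold change -6.36 ± 0.54, or -7.46 without peritoneal replicate 1, adjusted p = 1.36e-08). No peritoneal library came near a dura library. Osm, oncostatin M, had 7.01, 14.4, 18.6 and 10.9 CPM in peritoneal libraries, against 172, 126, 221 and 143 CPM in dura libraries (log2 fold change -3.70 ± 0.33, adjusted p = 2.59e-08). Il16 (-0.79) and Tnfsf13b (-0.60) were not called.

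Beside the chemokine and cytokine genes, the same libraries differed in immediate early and heat shock genes, which cells switch on within minutes of a stimulus or of stress. Of 15 tested members 14 were lower and 1 not called, the median log2 fold change being -5.37. Fos, a subunit of the AP-1 factor, had 9.26, 10.8, 13.1 and 18.3 CPM in peritoneal libraries, against 8989, 9598, 8959.9 and 8912 CPM in dura libraries (log2 fold change -9.47 ± 0.33, adjusted p = 5.67e-15). Jun, its partner in AP-1, had 46.5, 36.9, 50.4 and 52.3 CPM in peritoneal libraries, against 5904, 6158, 5899 and 5443 CPM in dura libraries (log2 fold change -6.97 ± 0.25, adjusted p = 9.29e-15). Egr1, an early growth response factor, had 14.9, 38.3, 23.3 and 41.3 CPM in peritoneal libraries, against 6467, 6234, 6316 and 6660.3 CPM in dura libraries (log2 fold change -7.77 ± 0.40, adjusted p = 6.76e-12). The summed level of the 15 genes was 1090.0–1472 CPM in peritoneal libraries, against 44006–48491 CPM in dura libraries. The MHC II-low dura libraries summed to 42938–52611 CPM, the choroid plexus libraries to 27103–58895 CPM and the microglia libraries to 51201–60745 CPM, and every peritoneal library was below every library of the other 4 populations. Handling of the cells is not given in the labels. Its part in these differences was not tested, nor its part in those of the transcription factors Egr2, Nr4a1 and Klf4.

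**Figure D4:**
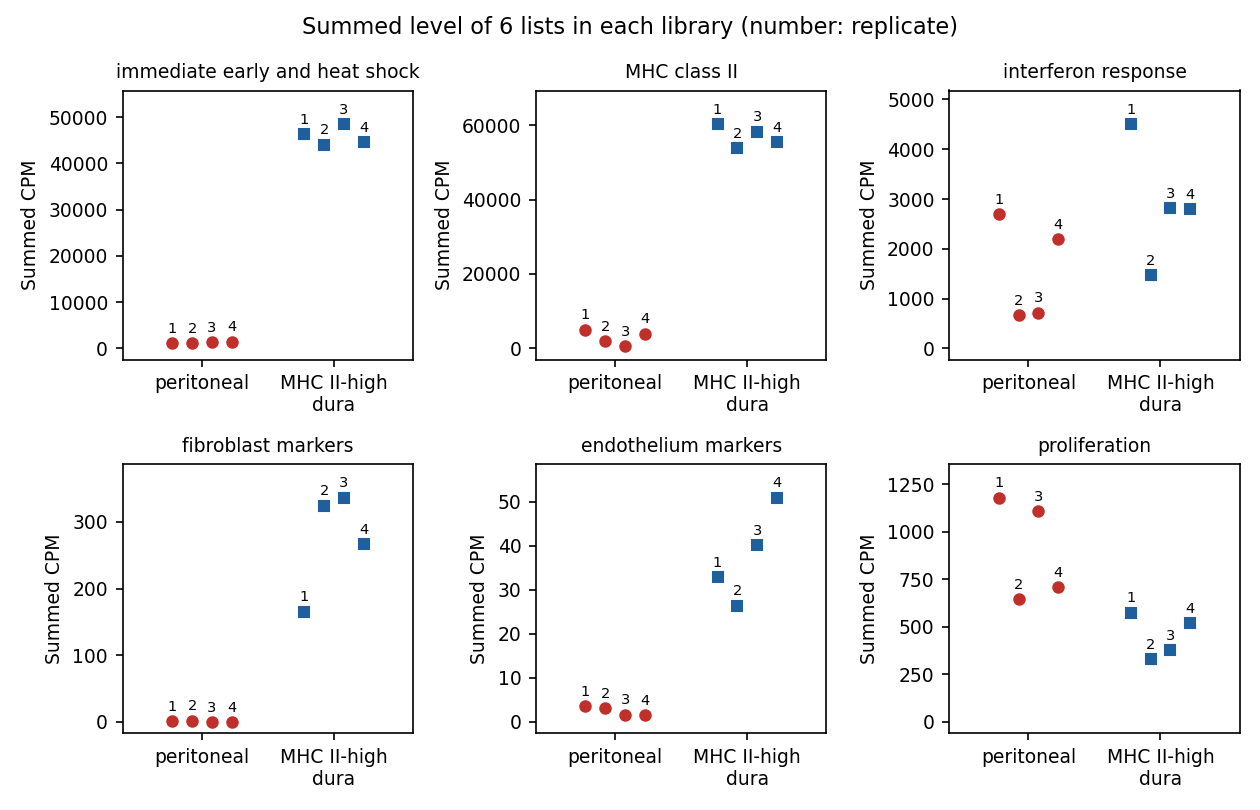
Summed CPM of 6 gene lists in each library, peritoneal left and MHC II-high dura right in each panel, with the replicate number at each point. Immediate early, MHC class II, fibroblast and endothelium sums do not overlap between the groups, interferon sums do, and the proliferation sums of the lowest peritoneal library (645 CPM) and the highest dura library (575 CPM) lie close.

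Sensors of microbes were mostly lower. Of 21 tested members 3 were higher, 11 lower and 7 not called, the median log2 fold change being -1.13. Naip1, an inflammasome sensor, had 109, 114, 91 and 99.9 CPM in peritoneal libraries, against 0, 0.178, 0.348 and 0.157 CPM in dura libraries (log2 fold change 9.29 ± 0.40, or 9.93 without MHC II-high dura replicate 3, adjusted p = 1.14e-13). Tlr5, the surface receptor for flagellin, had 0.415, 0.401, 0.517 and 1.54 CPM in peritoneal libraries, against 19.7, 36.3, 29 and 26.4 CPM in dura libraries (log2 fold change -5.31 ± 0.32, or -5.92 without peritoneal replicate 4, adjusted p = 3.41e-11). Tlr2, the receptor for bacterial lipoprotein, had 91.8, 103, 95.3 and 103 CPM in peritoneal libraries, against 702, 588, 878 and 702 CPM in dura libraries (log2 fold change -2.87 ± 0.12, adjusted p = 1.09e-13). The higher genes were Naip1, Naip5 and Naip6, near-identical copies among which reads could be split. With glmTreat 1 member was higher. Tlr13 (0.24) and Tlr4 (-0.85) were not called.

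Of 8 genes listed as Fc receptors 5 were lower, 1 higher and 2 not called. Fcrls, an Fc receptor-like molecule, had 40.2, 45.9, 11.9 and 59.7 CPM in peritoneal libraries, against 1259, 1329, 1393 and 1084 CPM in dura libraries (log2 fold change -5.01 ± 0.33, adjusted p = 2.54e-10). Fcgr1, the high-affinity receptor for IgG, had 71.4, 29.9, 48.1 and 60.5 CPM in peritoneal libraries, against 420.2, 229, 337 and 279 CPM in dura libraries (log2 fold change -2.59 ± 0.25, adjusted p = 4.53e-08). Fcna, ficolin A, a soluble lectin, had 1826, 1425, 1641 and 1441 CPM in peritoneal libraries, against 45.1, 60.8, 53.6 and 32.5 CPM in dura libraries (log2 fold change 5.04 ± 0.37, adjusted p = 2.22e-09). Without peritoneal replicate 2 or 3 there were 2 higher genes, Fcgr4 being the second.

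Complement genes were called in both directions. Of 14 tested members 4 were higher, 3 lower and 7 not called, the median log2 fold change being 0.08. The share called lower, 21.4%, was near the 20.1% over all genes tested. C4b, component C4 of the classical pathway, had 8673, 8116, 4009 and 10901 CPM in peritoneal libraries, against 848, 540.2, 422 and 648 CPM in dura libraries (log2 fold change 3.69 ± 0.45, adjusted p = 2.39e-06). Cfp, properdin of the alternative pathway, had 2689.5, 3087, 2751 and 2924 CPM in peritoneal libraries, against 481, 464, 544 and 408 CPM in dura libraries (log2 fold change 2.60 ± 0.16, adjusted p = 2.28e-11). Vsig4, a receptor for C3 fragments, had 483, 499, 515 and 417 CPM in peritoneal libraries, against 2.74, 5.4, 0.87 and 1.53 CPM in dura libraries (log2 fold change 7.51 ± 0.52, adjusted p = 1.78e-08). All peritoneal libraries were above all dura libraries. C1qb (-0.38) and C1qc (-0.22) were not called. Cfb (higher) and C2 (lower) share 79.5% and 46.9% of their exon length with other genes, so their calls are uncertain.

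Genes linked to alternative activation, the response of macrophages to interleukin 4, did not move as one. Of 13 tested members 4 were higher, 8 lower and 1 not called, the median log2 fold change being -2.30. Arg1, arginase 1, had 993, 465, 1551 and 562 CPM in peritoneal libraries, against 0.489, 0.446, 1.000 and 0 CPM in dura libraries (log2 fold change 10.86 ± 0.83, or 11.47 without MHC II-high dura replicate 3, adjusted p = 8.57e-09). Chil3, a chitinase-like protein, had 9.19, 10.7, 12.1 and 45.3 CPM in peritoneal libraries, against 0.0978, 0, 0 and 0 CPM in dura libraries. The ratio of peritoneal to dura counts of Chil3 was 613, with a 95% counting interval of 209 to 2973. Without peritoneal replicate 4 the ratio was 361. Chil3 was read in every peritoneal library and in 1 dura library. Retnla, resistin-like alpha, had 582, 1199.6, 682 and 705 CPM in peritoneal libraries, against 87.2, 63.5, 72.4 and 60.4 CPM in dura libraries (log2 fold change 3.48 ± 0.41, adjusted p = 4.91e-06). Arg1 was highest in peritoneal replicate 3 and Chil3 in replicate 4. The lower genes were Mgl2, Clec10a, Mrc1, Il4ra, Egr2, Pdcd1lg2, Cd163 and Socs2.

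TGF-beta genes included both directions. Of 19 tested members 5 were higher, 8 lower and 6 not called, the median log2 fold change being -0.62. Ltbp1, which stores latent TGF-beta in matrix, had 1286, 1947, 1054 and 1806 CPM in peritoneal libraries, against 3.2, 1.92, 1.83 and 1.06 CPM in dura libraries (log2 fold change 9.55 ± 0.57, adjusted p = 2.01e-10). Tgfb2, a ligand, had 245, 497, 205 and 335 CPM in peritoneal libraries, against 0.489, 0.357, 0.0435 and 1.65 CPM in dura libraries (log2 fold change 8.94 ± 1.03, or 9.98 without MHC II-high dura replicate 4, adjusted p = 1.49e-06). Tgfb3, another ligand, had 0, 0, 0.172 and 0 CPM in peritoneal libraries, against 7.34, 9.59, 11 and 17.9 CPM in dura libraries (log2 fold change -7.81 ± 0.70, or -10.97 without peritoneal replicate 3, adjusted p = 1.05e-08). So the 2 ligands were called in opposite directions. Skil, a corepressor of SMAD proteins, had 17.1, 14.8, 9.45 and 18.4 CPM in peritoneal libraries, against 318, 295, 528 and 415 CPM in dura libraries (log2 fold change -4.71 ± 0.26, adjusted p = 1.69e-11). The signalling receptors Tgfbr1 and Tgfbr2 were among the lower genes. Of 10 metalloproteases and inhibitors 7 were lower and 3 higher. Mmp14, a membrane-bound collagenase, had 0.311, 1.09, 0.138 and 0.6000 CPM in peritoneal libraries, against 159, 114, 110.5 and 126 CPM in dura libraries (log2 fold change -7.90 ± 0.32, or -8.54 without peritoneal replicate 2, adjusted p = 1.01e-13). Mmp13, a secreted collagenase, had 0, 0.947, 0 and 0 CPM in peritoneal libraries, against 47.6, 58.5, 163 and 55.1 CPM in dura libraries (log2 fold change -8.37 ± 0.76, or -7.74 without MHC II-high dura replicate 3, or -13.80 without peritoneal replicate 2, adjusted p = 5.94e-08). Timp3, an inhibitor of metalloproteases, had 0, 0, 0.0345 and 0 CPM in peritoneal libraries, against 16.2, 20.5, 21.7 and 18.1 CPM in dura libraries. The ratio of dura to peritoneal counts of Timp3 was 2054, with a 95% counting interval of 368 to 81178. The higher genes were Mmp19, Timp2 and Adam8.

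Fatty acid carriers led the lipid handling genes. Of 16 tested members 6 were higher, 4 lower and 6 not called, the median log2 fold change being 0.90, with 2 lower without MHC II-high dura replicate 1 or under a filter of 10 CPM in 4 libraries, and 1 lower with glmTreat. The share called lower was 25%, against 20.1% over all genes tested. Fabp4, a fatty acid carrier, had 262, 312, 289 and 233 CPM in peritoneal libraries, against 0.293, 0.446, 0.391 and 2.71 CPM in dura libraries (log2 fold change 8.15 ± 0.67, or 9.51 without MHC II-high dura replicate 4, adjusted p = 1.76e-08). Fabp5, a carrier on the same stretch of chromosome 3, had 182, 257, 246 and 163 CPM in peritoneal libraries, against 5.12, 4.01, 6.18 and 6.33 CPM in dura libraries (log2 fold change 5.29 ± 0.24, adjusted p = 4.78e-13). Fabp7, another fatty acid carrier, had 166, 107, 112 and 114 CPM in peritoneal libraries, against 1.96, 1.25, 2.48 and 1.42 CPM in dura libraries (log2 fold change 6.13 ± 0.37, adjusted p = 5.31e-11). All 3 were higher without overlap. Apoc1, an apolipoprotein, had 35.3, 38.2, 52.4 and 21.6 CPM in peritoneal libraries, against 0.945, 1.87, 0.913 and 0.59 CPM in dura libraries (log2 fold change 5.10 ± 0.39, adjusted p = 9.02e-10). The lower genes were Apoe, Abca1, Abcg1 and Dgat2. Of 17 cholesterol synthesis genes 14 were not called, among them Srebf2 (-0.10). The other 3 were higher, but without peritoneal replicate 4 there were 1 higher and 1 lower. Mvd, mevalonate diphosphate decarboxylase, had 19.7, 19.5, 35.7 and 22.8 CPM in peritoneal libraries, against 6.72, 5.13, 6.26 and 3.03 CPM in dura libraries (log2 fold change 2.21 ± 0.24, adjusted p = 1.33e-07).

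Iron genes were mostly lower or not called. Of 13 tested members 1 was higher, 6 lower and 6 not called, the median log2 fold change being -0.14. At 7.69%, the share called higher was near the 9.18% over all genes tested. Slc40a1, ferroportin, the exporter of iron from cells, had 0, 0.0364, 0.069 and 0.129 CPM in peritoneal libraries, against 193, 378, 276 and 159 CPM in dura libraries (log2 fold change -12.01 ± 0.42, adjusted p = 1.37e-14). Tfrc, the transferrin receptor, had 12.3, 9.15, 13.4 and 9.73 CPM in peritoneal libraries, against 30.7, 45.6, 55.8 and 37.1 CPM in dura libraries (log2 fold change -1.92 ± 0.20, adjusted p = 1.1e-07). Hfe, a regulator of iron sensing, had 105, 72.4, 84.3 and 73.7 CPM in peritoneal libraries, against 276, 285, 275 and 251 CPM in dura libraries (log2 fold change -1.69 ± 0.11, adjusted p = 4.71e-11). Ferroportin had less than 1 CPM in every peritoneal library. The higher gene was Steap3, a ferrireductase named after its values were seen, and it was not called without peritoneal replicate 4 or MHC II-high dura replicate 4. Ftl1 (-0.12) was not called.

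Of 19 cathepsin and lysosome genes 13 were not called, 5 were lower and 1 higher, with 3 lower without peritoneal replicate 3. These shares, 26.3% lower and 5.26% higher, compare with 20.1% and 9.18% over all genes tested. Ctsc, cathepsin C, had 1074, 693, 840.4 and 938 CPM in peritoneal libraries, against 4124, 3830.0, 3859 and 3546 CPM in dura libraries (log2 fold change -2.12 ± 0.13, adjusted p = 3e-11). Its groups did not overlap. Lamp1 (0.01) and Ctsb (-0.81) were not called. Ctsd was higher (1.24), but it shares 34.4% of its exon length with other genes.

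Glycolysis genes were higher in part. Of 21 tested members 9 were higher, 3 lower and 9 not called, the median log2 fold change being 0.96. Pfkl, the liver-type phosphofructokinase, had 361, 407, 408 and 549.5 CPM in peritoneal libraries, against 69.5, 51.5, 49.5 and 38.7 CPM in dura libraries (log2 fold change 3.04 ± 0.17, adjusted p = 4.99e-12). Slc2a6, a sugar transporter of lysosomes, had 199, 168, 139.5 and 221 CPM in peritoneal libraries, against 26.7, 12.5, 18 and 17 CPM in dura libraries (log2 fold change 3.29 ± 0.23, adjusted p = 4.15e-10). Slc2a3, a glucose transporter, had 0.864, 0, 0.138 and 0 CPM in peritoneal libraries, against 18.7, 16, 20.1 and 17.6 CPM in dura libraries (log2 fold change -6.08 ± 0.59, or -8.35 without peritoneal replicate 1, adjusted p = 6.88e-08). The higher genes were Slc2a6, Hk1, Pfkl, Aldoa, Gapdh, Pgam1, Eno1, Pkm and Ldha, and the lower genes Slc2a3, Hk2 and Pfkfb3. Oxidative phosphorylation subunits had a median log2 fold change of 0.63, with 18 of 20 not called and 2 higher, or 1 higher without peritoneal replicate 3. Their share called higher, 10%, was near the 9.18% over all genes tested. Ndufa1, a subunit of complex I, had 68.9, 70.6, 81.1 and 48.9 CPM in peritoneal libraries, against 17.4, 24.1, 23.1 and 20.4 CPM in dura libraries (log2 fold change 1.66 ± 0.28, adjusted p = 5.3e-05).

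Interferon response genes varied within both groups. Of 16 tested members 1 was higher, 8 lower and 7 not called, the median log2 fold change being -1.53, with 4 lower when tested against the 2-fold threshold itself. Ifit2, an interferon-induced RNA-binding protein, had 35, 4.01, 3.07 and 8.36 CPM in peritoneal libraries, against 529.9, 116, 443 and 337 CPM in dura libraries (log2 fold change -4.82 ± 0.95, or -6.12 without peritoneal replicate 1, adjusted p = 0.000438). Ifit3, its family member, had 26.2, 2.004, 1.66 and 17.3 CPM in peritoneal libraries, against 321, 68.5, 227 and 206 CPM in dura libraries (log2 fold change -4.13 ± 0.94, or -4.90 without peritoneal replicate 1, adjusted p = 0.00144). Both were lower without overlap. Irf7, the amplifier of the type I response, had 566, 77.2, 82.9 and 759 CPM in peritoneal libraries, against 791, 133, 275 and 508 CPM in dura libraries (log2 fold change -0.20 ± 0.85, adjusted p = 0.864). Irf7 was not called, and the groups overlapped. In both groups replicates 1 and 4 were above replicates 2 and 3. The summed level of the list was 2700.4, 667, 714 and 2196 CPM in peritoneal libraries, against 4504, 1475, 2812 and 2793 CPM in dura libraries. Gbp3, an interferon-induced GTPase named after its values were seen, was the higher gene, a call lost without peritoneal replicate 1.

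Proliferation genes were higher in part. Of 15 tested, 9 were higher and 6 not called, and the median log2 fold change was 1.04, and 5 were higher without peritoneal replicate 1 or without peritoneal replicate 3, and 2 when tested against the 2-fold threshold itself. Rrm2, which makes deoxynucleotides, had 111, 58.8, 103 and 54.1 CPM in peritoneal libraries, against 29.5, 13.8, 11.9 and 20.4 CPM in dura libraries (log2 fold change 2.11 ± 0.36, adjusted p = 8.73e-05). Mcm5, a subunit of the replication helicase, had 168, 92.1, 211 and 134 CPM in peritoneal libraries, against 81.9, 38.6, 51.5 and 54.2 CPM in dura libraries (log2 fold change 1.42 ± 0.27, adjusted p = 0.000208). Pcna, the sliding clamp of DNA polymerase, had 129, 75.3, 145 and 77 CPM in peritoneal libraries, against 89.5, 83.2, 99.2 and 91.1 CPM in dura libraries (log2 fold change 0.23 ± 0.18, adjusted p = 0.292). Peritoneal replicates 1 and 3 were the highest for all 3 genes, and the groups overlapped for Pcna, which was not called.

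**Figure D5:**
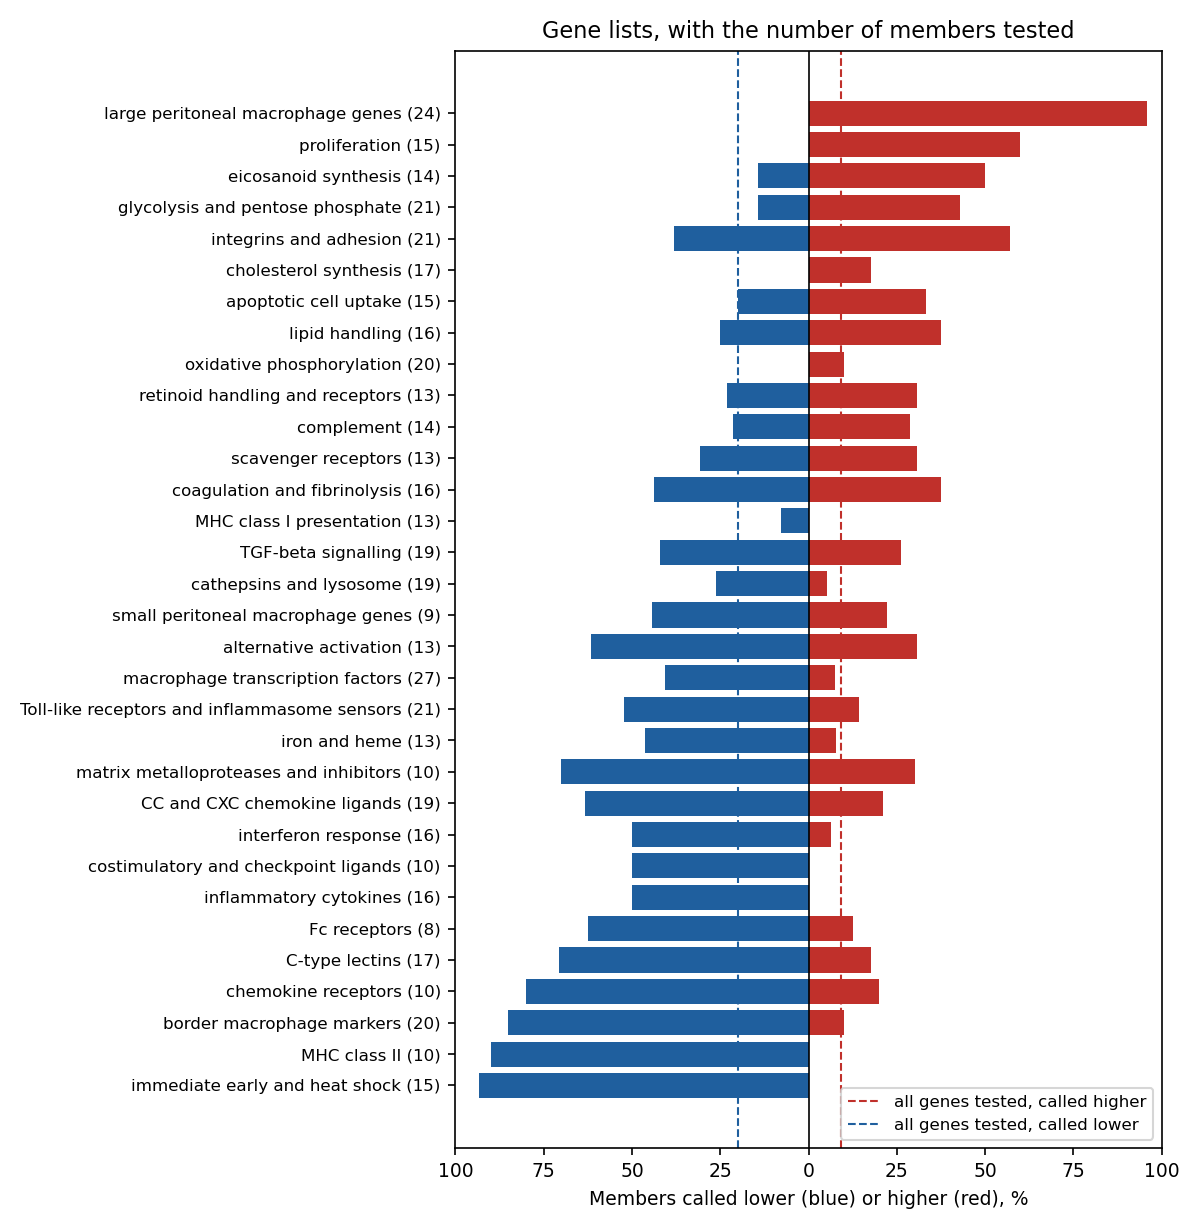
Share of the members tested of each role list that was called higher (red, to the right) or lower (blue, to the left) in peritoneal macrophages, with the number of members tested in parentheses. Dashed lines mark the shares over all genes tested, 9.18% higher and 20.1% lower, and the lists run from the large peritoneal macrophage genes at the top to the immediate early and heat shock genes at the bottom.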

How the data were processed

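Bulk RNA-seq of 20 libraries was used, 4 of each population. The authors deposited raw counts per gene, which were used as deposited, on symbol rows only. Per the submitters' processing notes, TopHat2 2.1.0 and the build mm10 were used, with SAMtools 0.1.18, Trimmomatic 0.38 and FastQC 0.11.4. The sources used here name no counting program, annotation or strand setting. How reads of overlapping and antisense genes were assigned is thus not fully known. Rows for reads outside genes (5.67–8.17%) or of more than 1 gene (1.01–1.51%) were left out. Reads in the latter row thus entered no gene's level.

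Counts were scaled by TMM, filtered with filterByExpr and tested with edgeR 4.0.16 (robust quasi-likelihood, R 4.3.3) in 1 fit over all 20 libraries, without covariates, with Benjamini-Hochberg adjustment over 13960 genes. Ratios and bounds cover counting error only, and their lower limit is 3 counts. Positions and exon overlap are from GENCODE M21 and promoter windows from RefSeq.

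Named genes were the 12 largest non-overlapping called changes in each direction at 20 CPM or more, 4 markers, and from each of 49 gene lists up to 4 called members at 10 CPM or more with the largest change and up to 2 uncalled members with the highest level. Called list members are also given by name. Some listed genes are counted but not reported here by name. The members and lists were chosen with earlier results of these data known. Alternatives were other scalings and filters, DESeq2 1.42.0, glmTreat, the 8 libraries alone, a replicate block and leaving out each library.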

Additional observations from a re-analysis of the deposited data

Results flagged for a closer look

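In 308 groups of 4 libraries with a mean of at least 10 CPM, taken from the genes named above and the list sums, 20 held a highest or lowest library whose gap to its nearest neighbour took nearly all of the group's range, beyond Dixon's 95% critical value. Chance flags about 1 in 20 groups. Among genes, peritoneal replicate 1 stood apart for Aif1 (24.9 CPM), Fabp7 (166 CPM) and Ifit2 (35 CPM). Among genes, peritoneal replicate 3 stood apart for Lamp1 (1700.1 CPM). Among genes, peritoneal replicate 4 stood apart for Cebpb (2424 CPM), Chil3 (45.3 CPM) and Rarb (72.8 CPM). Among genes, MHC II-high dura replicate 1 stood apart for C2 (78.2 CPM) and Ctsb (8813 CPM). Among genes, MHC II-high dura replicate 2 stood apart for Fos (9598 CPM). Among genes, MHC II-high dura replicate 3 stood apart for Cd83 (2529 CPM), Kmo (59.5 CPM) and Mmp13 (163 CPM). Among genes, MHC II-high dura replicate 4 stood apart for Ptgds (201 CPM). Among list sums, peritoneal replicate 3 stood apart for CC and CXC chemokine ligands (8321 CPM). Among list sums, peritoneal replicate 4 stood apart for cholesterol synthesis (629 CPM). Among list sums, MHC II-high dura replicate 1 stood apart for large peritoneal macrophage genes (544 CPM) and cathepsins and lysosome (30695 CPM). Among list sums, MHC II-high dura replicate 4 stood apart for border macrophage markers (39303 CPM) and astrocyte markers (92.2 CPM). The Ptgds value and the astrocyte sum lie in the same dura library, and Gja1 gave most of that sum. Cd83, Kmo and Mmp13 were all highest in MHC II-high dura replicate 3.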

How the results depend on the processing

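No gene called in the peritoneal against MHC II-high dura comparison was called in the opposite direction in any alternative run. The number called was 3433 with only the 8 libraries compared, 4158 with DESeq2, 4085 with RLE size factors, 4081 with total counts and 4377 without the filter on low counts, against 4083. A filter of 10 CPM in 4 libraries left 9477 genes tested, 2429 called and 1518 of them lower. With glmTreat, which tests against the 2-fold threshold itself, 2833 were called, 777 of them higher. Leaving out 1 library at a time gave 3805 to 4306 called, 1184 to 1407 higher and 2621 to 2899 lower. Libraries with the same replicate number in the 2 groups deviated from their group means with correlations of 0.0704, 0.119, 0.0731 and -0.00556. Libraries with different numbers had correlations of -0.129 to 0.118. Whether the numbers pair the samples cannot be told from these values. With the replicate number as a block, 3983 genes were called over all 20 libraries and 3409 over the 8. DESeq2 gave no adjusted p for 93 genes. Of the 148 called genes picked by the rule for named genes, 11 lost the call in some alternative: Tap1, Ifi44, Cd86, Npc1, Cp, Idi1, Insig1, Ndufa4, Mcm5, Ccna2 and Dpp4. Called list members named beyond that rule are outside this count. Some of them also lost the call, among them Tubb3, Slc2a5, Steap3 and Gbp3. Depth limits genes under 3 counts in a library.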
